A study of Mus musculus with 14 samples.

Results

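Regions of H3K4me3 that were called in K27M-Tag cultures and not in WT-Tag cultures were examined. The H3K4me3 peak lists of 6 cultures were merged on chromosomes 1 to 19 wherever peaks shared at least 1 bp, and a region was kept when all 3 K27M-Tag lists and none of the 3 WT-Tag lists had a peak in it. The rule found 1833 of 41556 merged regions (4.41%). The opposite pattern, a peak in all 3 WT-Tag lists and in no K27M-Tag list, was found at 111 regions (0.267%), and 21864 regions had a peak in all 6 lists. The K27M-Tag H3K4me3 lists held more autosomal peaks (34309 to 37627) than the WT-Tag lists (30884 to 31483). With each list cut to 30884 peaks, the rule found 982 regions, and the opposite count at that size is not given. The 1833 regions are called K27M-Tag-only regions below, and the 21864 are called shared regions. The K27M-Tag-only regions were chosen by the presence and absence of H3K4me3 peaks, so their H3K4me3 values are given as a description without a test. FLAG was not used in the choice and is tested over cultures, but the local background of FLAG calls is not independent of the choice (below).

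The cultures were neurospheres, free-floating cultures of neural stem cells, grown from the hindbrain of e15.5 mouse embryos. Their genotypes were Nestin-cre; H3f3aLSL-K27M-Tag/+ (3 cultures, all female) and Nestin-cre; H3f3aLSL-WT-Tag/+ (3 cultures, replicates 1 and 2 female and replicate 3 male). Both genotypes thus carried Nestin-cre, which is active in neural precursors, and 1 tagged knock-in allele of H3f3a beside an untagged one. They differed in whether the tagged histone had the K27M substitution. Each culture gave 1 library with an H3K4me3 antibody and 1 with a FLAG antibody, 12 in all. No culture without a tagged histone was analysed here, so the FLAG level of untagged cells is not known. The labels do not say whether cultures came from separate embryos, and p-values measure only the spread between these cultures.

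H3f3a encodes the histone variant H3.3, which is placed into chromatin throughout the cell cycle and collects at active promoters, enhancers and transcribed genes. K27M replaces lysine 27 of the histone tail by methionine and is the recurrent mutation of diffuse midline gliomas, where it blocks the methyltransferase of the Polycomb repressive complex PRC2 and lowers H3K27me3. H3K4me3 is the mark of active and poised promoters, and broad, high peaks are typical of CpG-rich promoters, whereas small peaks are also found at enhancers and weak promoters.

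The K27M-Tag-only regions were narrow and low. Their median width was 498 bp, against 1669 bp at shared regions. Of the 1833, 86 were wider than 1000 bp and 5 were wider than 2000 bp. The 5th and 95th percentiles of their width were 286 and 979.6 bp. Together they covered 0.785, 0.683 and 0.763 Mb in K27M-Tag replicates 1, 2 and 3, which is 1.81%, 1.68% and 1.75% of the bases under H3K4me3 peaks of those lists. A small share of the mark's called length thus lay in regions that met the rule.

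Rank was measured as the percentile of the deposited score within a culture's own list, where 100 is the highest peak of that list. The median K27M-Tag-only region stood at percentile 22.6, 20.4 and 24.7 in the 3 cultures, in the order of their replicate numbers. The best-placed of them reached 70.3, 70.7 and 74.0. By the lowest of its 3 percentiles, the median was 13.0 at K27M-Tag-only regions and 67.3 at shared regions, and 83.2% of the former were under percentile 25 against 5.38% of the latter. Only 4 of the 1833 were above percentile 50 in all 3 cultures, and 32 were above percentile 40. The regions therefore lay mostly in the lower part of every K27M-Tag list. Their −log10 q was under 3 at 0.382%, 0.818% and 0.491% of them, beside 0.283%, 0.583% and 0.574% of all peaks of those lists, which stop near 2.

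**Figure D1:**
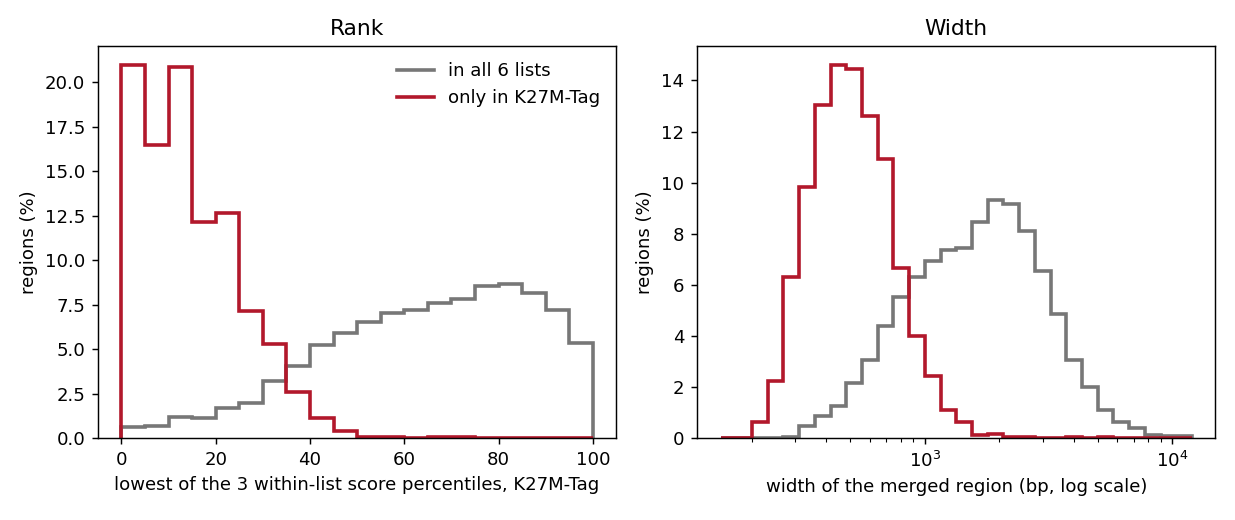
Distribution of K27M-Tag-only regions (red) and shared regions (grey) by the lowest of their 3 within-list score percentiles in K27M-Tag (left) and by the width of the merged region in bp on a log axis (right), as a percent of the regions of each kind. The medians were 13.0 against 67.3 for rank and 498 against 1669 bp for width.

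Fold enrichment at the summit, the deposited ratio of signal to the caller's local background, had medians of 5.06, 4.77 and 4.88 in the 3 K27M-Tag lists. The summit pileup recovered from the deposited fold and p was 6.61, 6.49 and 6.28 times the background coverage. Taking the lowest culture of each region, the median pileup was 5.71 times background (5th to 95th percentile 4.51 to 8.29), against 42.3 times at shared regions. Among the 3 cultures the called length of a K27M-Tag-only region had a median coefficient of variation of 22.7%, against 5.86% at shared regions. For height the values were 14.1% against 12.3%. The summits of the 3 cultures fell within 100 bp of each other at 46.4% of K27M-Tag-only regions and at 69.4% of shared regions, with median ranges of 109 and 57 bp. Since the rule keeps only peaks that merge into one region, some nearness of the summits is fixed by the choice. At K27M-Tag-only regions called length thus varied more between the cultures than height did, and at shared regions it varied less.

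The rule is a threshold on presence, and the regions next to it show how sharp it was. Just inside were chr5:9011241-9011717, with −log10 q of 11.0, 7.04 and 2.08 in K27M-Tag replicates 1 to 3, and chr8:46524757-46525198, with 9.73, 9.21 and 2.15. Just outside was chr4:26693511-26694256, which had 11.6, 15.2 and 11.0 in K27M-Tag and a peak of 231 bp with −log10 q 2.07 in WT-Tag replicate 2. The region chr9:43281592-43282352 had 10.7, 13.3 and 13.7 and a peak of 220 bp with −log10 q 2.11 in the same WT-Tag culture. These 2 excluded regions were higher in every K27M-Tag culture than the 2 included ones were in replicate 3. A further 1626 regions had peaks in all 3 K27M-Tag lists and 1 WT-Tag list, and 2332 had peaks in 2 K27M-Tag lists but in none from WT-Tag. The count of 1833 thus moved with the lists: it was 2991 without K27M-Tag H3K4me3 replicate 2, 1215 with the 50% of peaks of highest score, and 982 when each list was cut to its 30884 highest peaks. Most of the 1215 were not among the 1833, of which only 4 were above percentile 50 in all 3 K27M-Tag cultures. The cut also removes lower WT-Tag peaks, so other regions then meet the rule.

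The K27M-Tag-only regions were of 2 kinds by position. Those with 5000 bp or less to the nearest other H3K4me3 region of any list are called shoulders, and 725 regions (39.6%) were of this kind. The other 1108 (60.4%, 95% Clopper-Pearson interval 58.2% to 62.7%, for counting error only) were isolated. The median gap was 9283 bp, with a middle range from 880 to 29353 bp. A gap over 50 kb was found at 253 regions (13.8%) and over 100 kb at 95. At the near end, 22.3% lay within 500 bp of another region. The shared regions had almost the same spacing, with 57.8% over 5 kb from their neighbour and a median gap of 7660 bp. The 111 WT-Tag-only regions lay closer to others: 24 of them (21.6%) were isolated, and their median gap was 299 bp.

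**Figure D2:**
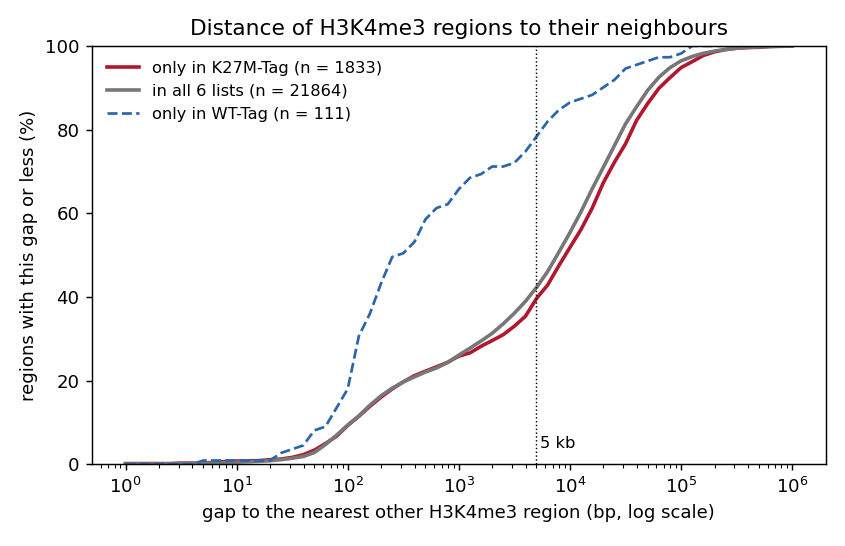
Cumulative percent of regions by the gap in bp to the nearest other H3K4me3 region (log axis) for K27M-Tag-only (red), shared (grey) and WT-Tag-only (blue, dashed) regions, with the 5 kb limit dotted. The red and grey curves run close together, with medians of 9283 and 7660 bp, while the WT-Tag-only curve stands to the left at 299 bp.

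The neighbour itself was a shared region at 830 K27M-Tag-only regions (45.3%), against 51.0% over all H3K4me3 regions. It was a region called in 1 or 2 K27M-Tag lists only at 475 (25.9%), a region of both genotypes but not of all 6 lists at 342 (18.7%), another K27M-Tag-only region at 111 (6.06%), and a region of WT-Tag lists only at 75 (4.09%). Among all regions, 4.35% had a K27M-Tag-only region as the neighbour. Few of the regions stood in clusters. With links of up to 5000 bp, 1752 stood alone, 39 pairs were formed, and 1 chain of 3 spanned 4480 bp at chr11:21974795-21979274. Within 5 kb of a K27M-Tag-only region stood 364 shared regions with a median width of 1944.5 bp. Their called H3K4me3 length was larger in K27M-Tag by a median log2 difference of 0.19, close to the 0.14 of all shared regions.

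Shoulders and isolated regions were alike in size. Their median widths were 507 and 494 bp, and their median gaps were 321 and 22436 bp. The 5 regions wider than 2000 bp were all shoulders. On single chromosomes the share of H3K4me3 regions that met the rule ran from 3.72% on chromosome 14 to 5.44% on chromosome 16, so the regions were spread over all 19 autosomes.

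The 3 highest-ranked regions came from 2 loci. On chromosome 10, chr10:45187192-45191449 (4258 bp) had H3K4me3 peaks over 4258, 3750 and 3731 bp in K27M-Tag replicates 1 to 3. Its fold enrichments were 38.2, 40.6 and 36.7, and its percentiles were the maxima of 70.3, 70.7 and 74.0 given above. Its neighbour 1340 bp away, chr10:45192790-45194044 (1255 bp), had rank 3, with folds of 21.5, 24.4 and 23.8. On chromosome 11, chr11:95864416-95869617 (5202 bp) was the widest of all and was called over 5185, 5144 and 5166 bp with folds of 32.7, 38.2 and 28.6. A second K27M-Tag-only region, of 1037 bp, ended 93 bp before it. The lowest summit pileup of the 3 cultures was 46.8 times background at the chromosome 10 region and 39.98 times at the chromosome 11 region, on either side of the 42.3 of the median shared region. All 3 K27M-Tag cultures were thus high at both loci, and no WT-Tag list of either antibody had a peak within 15 kb of the centre of either locus.

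FLAG was present at both loci in K27M-Tag, with narrow peaks of low to high rank within their FLAG lists. It covered 264, 520 and 647 bp of the largest chromosome 10 region, with highest folds of 4.09, 3.92 and 5.86 in K27M-Tag replicates 1 to 3. By FLAG score these stood at percentiles 29.0, 20.2 and 78.1 of their lists, so they were low in replicates 1 and 2. The smaller region beside it had higher FLAG folds, 7.21, 4.84 and 7.39 (percentiles 89.4, 58.2 and 90.4). The chromosome 11 region had 883, 1364 and 1086 bp under FLAG and folds of 4.57, 4.84 and 6.30. The region of rank 4, chr1:63319362-63321297 (1936 bp), was different. It stood 58546 bp from any other H3K4me3 region, had H3K4me3 folds of 15.0, 19.1 and 22.9, and had no FLAG peak in any of the 6 FLAG lists, nor any within 15 kb of its centre.

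**Figure D3:**
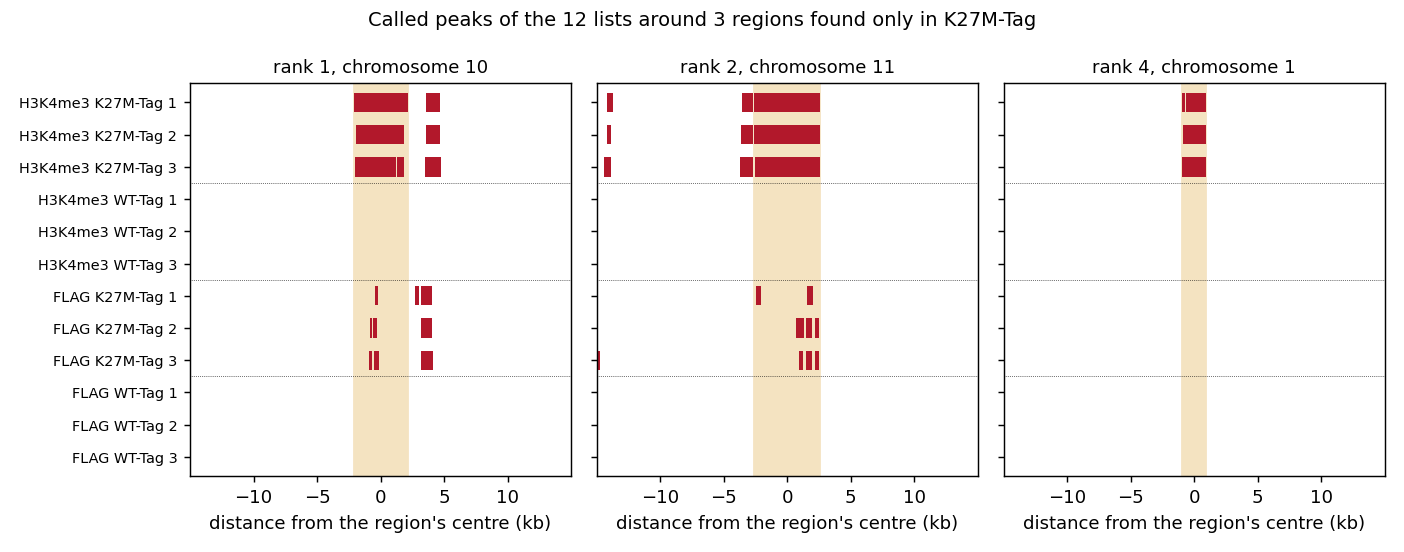
Called peaks (red bars) of the 12 lists within 15 kb of the centre of the regions of rank 1, 2 and 4, by distance from the centre in kb, with the region shaded. H3K4me3 peaks are present in the 3 K27M-Tag lists of each locus and FLAG peaks at ranks 1 and 2, and the rows of the WT-Tag lists are empty.

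The remaining regions among the 10 of highest rank were 710 to 1868 bp wide. With chr1:63319362-63321297, the regions chr1:6724285-6725229 (945 bp, H3K4me3 folds 11.6, 11.7 and 10.2), chr15:40364690-40365805 (1116 bp) and chr7:69551287-69552441 (1155 bp) had no FLAG peak in any list. The region on chromosome 15 was the most distant of the 10, with a gap of 119104 bp. The regions chr10:42654461-42656328 (1868 bp) and chr11:21976756-21978339 (1584 bp) had FLAG in all 3 K27M-Tag lists, with folds of 6.25, 3.92 and 6.95 at the former and 5.29, 4.84 and 5.86 at the latter. The latter is the middle of the chain of 3 and was the single region of the 10 with a WT-Tag FLAG peak, of fold 5.08 in replicate 3. Last, chr7:128008297-128009006 (710 bp) had FLAG folds of 4.57 and 4.15 in K27M-Tag replicates 1 and 2 and no peak in replicate 3. Of the 10, 5 had FLAG in all 3 K27M-Tag cultures and 6 were shoulders, with a median width of 1419.5 bp. Such FLAG was found at 10 of the 50 and 23 of the 100 regions of highest rank. The 5 of 10 rest on few loci, since ranks 1 to 3 came from 2 loci. Over all K27M-Tag-only regions, FLAG did not become rarer towards lower ranks. With the regions in 4 groups by rank, the mean share with FLAG in a K27M-Tag culture was 35.9% in the highest group and 59.2% in the lowest (below). The fifth isolated region by rank, chr3:148396172-148397007 (836 bp), had FLAG in K27M-Tag replicate 1 only, with a fold of 3.60.

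The 5 widest regions include those of rank 1 and 2 and 3 others. The region chr2:93030863-93033270 (2408 bp), 113 bp from a shared region, was almost filled by FLAG in K27M-Tag, with 2166, 2090 and 2294 bp and folds of 7.83, 5.36 and 7.94, and it had no WT-Tag FLAG peak. The region chr6:91168809-91171120 (2312 bp) had FLAG in every culture, over 2195, 1068 and 2290 bp in K27M-Tag against 307, 256 and 886 bp in WT-Tag. Its H3K4me3 followed the same order among the K27M-Tag cultures, with 2021, 840 and 2064 bp. The region chr2:151798739-151800748 (2010 bp) had 375, 451 and 693 bp of FLAG in K27M-Tag cultures and no WT-Tag FLAG peak.

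Whether the tagged histone was found at these regions was asked with the FLAG lists. In K27M-Tag replicates 1 to 3 a FLAG peak overlapped 49.4%, 43.0% and 52.5% of the 1833 regions. The WT-Tag replicates had one at 15.7%, 21.3% and 19.7%. The groups did not overlap, with means of 48.3% ± 4.83 and 18.9% ± 2.90 (SD, n = 3 each), a difference of 29.4 percentage points and a ratio of 2.55. The two-sided exact permutation p was 0.1, and 0.1 after Benjamini-Hochberg adjustment over 13 comparisons, which is the smallest p that 3 cultures against 3 allow, so no comparison of this kind can pass 0.05. The K27M-Tag FLAG lists held more peaks (57061 to 87258) than the WT-Tag ones (32466 to 46880). With FLAG lists cut to equal numbers of peaks, the difference was 19.5 points (exact permutation p = 0.1). All other H3K4me3 regions had 55.1% ± 5.73 in K27M-Tag cultures against 26.1% ± 4.08 in WT-Tag cultures (SD, n = 3 each), a difference of 28.9 points, so the contrast over the 1833 was about that of the rest. By bases, FLAG peaks of K27M-Tag cultures covered 41.9% ± 4.80 of the regions' length and those of WT-Tag cultures 11.7% ± 2.51 (SD, n = 3 each), with the same exact p of 0.1.

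Shared regions had a FLAG share of 58.4% ± 6.27 in K27M-Tag cultures against 24.6% ± 3.81 in WT-Tag cultures (SD, n = 3 each), and the genotypes did not overlap there either. The test of the difference used the share at K27M-Tag-only regions minus that at shared regions in each culture. For the K27M-Tag cultures this was −10.7, −8.44 and −11.1 percentage points, and for the WT-Tag cultures −4.47, −5.49 and −6.99. The genotype contrast was thus smaller at K27M-Tag-only regions than at shared ones (−4.45 points, exact permutation p = 0.1). By covered bases the order was the opposite, since the contrast was larger by 8.97 points at K27M-Tag-only regions (14.1 ± 0.339 for K27M-Tag against 5.16 ± 1.03 for WT-Tag, SD, n = 3, exact permutation p = 0.1). As a ratio of K27M-Tag to WT-Tag both orders turn: 2.55 against 2.38 for the share, and 3.59 against 4.27 for covered bases, so the comparison depends on the scale.

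Width moved with this result. Within regions of like width, in strata chosen after seeing the data, the contrast in FLAG share was larger at K27M-Tag-only than at shared regions by 17.02 points under 400 bp, 14.5 points from 400 to under 600 bp and 15.54 points from 600 to under 1000 bp. It was smaller from 1000 bp upwards (−4.90 points). The genotypes did not overlap in any of these strata, and each exact permutation p was 0.1. Under 400 bp, FLAG lay on 31.3% of K27M-Tag-only regions in K27M-Tag cultures and 11.5% in WT-Tag cultures, against 6.67% and 3.87% of shared regions. From 600 to under 1000 bp the values were 61.4% and 23.5% against 42.9% and 20.6%. Below 1000 bp, K27M-Tag-only regions thus carried FLAG more often than shared regions of like width in cultures of both genotypes, by more in K27M-Tag. Other narrow H3K4me3 regions also carried FLAG often. Regions in 1 or 2 K27M-Tag lists only (median width 262 bp) had 52.5% in K27M-Tag cultures against 24.9% in WT-Tag. Those in 3 K27M-Tag and 1 or 2 WT-Tag lists (612 bp) had 50.3% against 26.3%. Frequent FLAG at a narrow width was thus not particular to K27M-Tag-only regions. The strata hold small and selected subsets of the shared regions (250 under 400 bp). With FLAG lists cut to equal numbers of peaks, the difference of −4.45 over all widths became 0.261 (exact permutation p = 0.8).

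**Figure D4:**
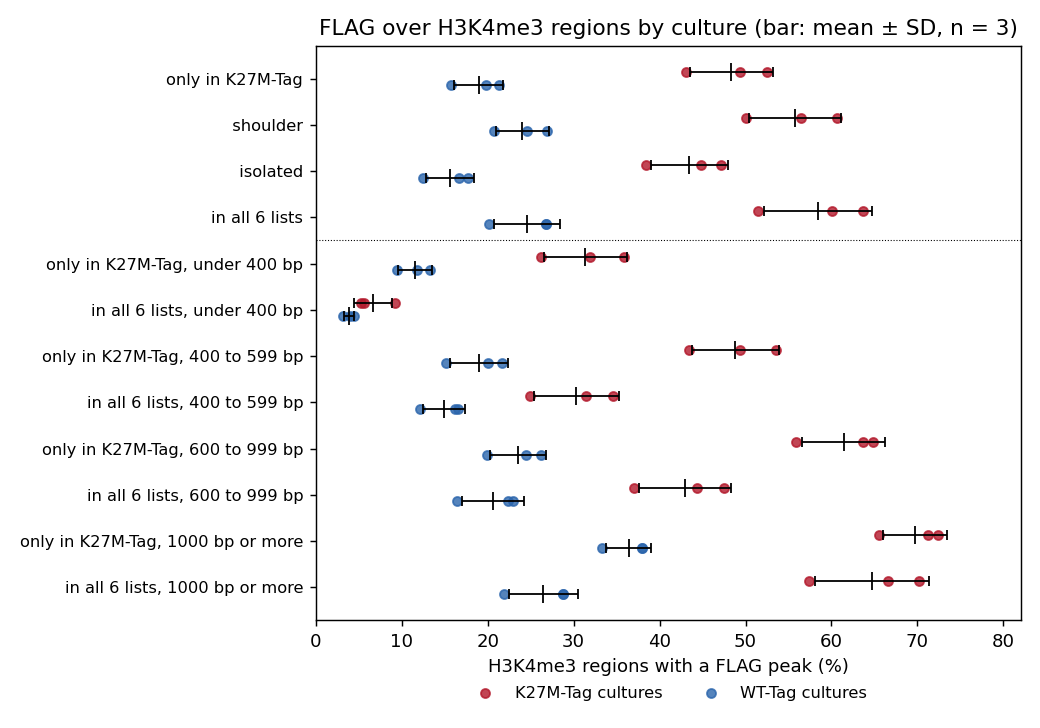
Percent of H3K4me3 regions with a FLAG peak in each K27M-Tag (red) and WT-Tag (blue) culture, with mean ± SD of 3 cultures as black bars, for K27M-Tag-only regions, their shoulder and isolated parts, shared regions, and both kinds by width. The K27M-Tag cultures stand above the WT-Tag cultures in every line, with means of 48.3% against 18.9% over all K27M-Tag-only regions.

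Shoulders carried FLAG more often than isolated regions. At shoulders the share was 55.7% ± 5.34 in the K27M-Tag cultures against 24.0% ± 3.13 in the WT-Tag cultures, and at isolated regions it was 43.5% ± 4.52 against 15.6% ± 2.76 (SD, n = 3 each). It was higher at shoulders in each of the 6 cultures. The step from isolated to shoulder was 12.3 points for K27M-Tag and 8.46 for WT-Tag, a difference of 3.79 points (exact permutation p = 0.1, groups not overlapping), while the ratio of K27M-Tag to WT-Tag was 2.32 at shoulders and 2.79 at isolated regions. FLAG in every K27M-Tag culture and in no WT-Tag culture was found at 149 isolated regions (13.4%), no more than the 13.6% of all H3K4me3 regions.

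FLAG was least frequent at the K27M-Tag-only regions of highest H3K4me3 rank. When the regions were put in 4 groups of 458 or 459 by their lowest percentile, FLAG overlapped 59.2% ± 4.83, 51.2% ± 5.08, 47.0% ± 5.39 and 35.9% ± 4.10 of them in K27M-Tag, from the lowest to the highest group (SD, n = 3). In WT-Tag the values were 27.4% ± 4.40, 21.5% ± 2.40, 18.3% ± 3.36 and 8.52% ± 1.51 (SD, n = 3). The differences between the genotypes were 31.8, 29.7, 28.7 and 27.4 points, and the cultures did not overlap in any group. As a ratio of K27M-Tag to WT-Tag the contrast instead rose from the lowest to the highest group, so its order depends on the scale. The share of shoulders was 43.8%, 43.2%, 36.7% and 34.5% in the same groups, and its part in the order was not tested.

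By region, FLAG in all 3 K27M-Tag lists and in no WT-Tag list was found at 267 of the 1833 (14.6%), close to the share of all H3K4me3 regions (13.6%). FLAG in all 6 lists was found at 191 (10.4%, against 15.3% of all regions) and FLAG in no list at 789 (43.0%, against 34.6%). The reverse pattern, FLAG in all 3 WT-Tag lists and in no K27M-Tag list, was seen at 0 of the 1833 and at 0.0505% of all H3K4me3 regions. A WT-Tag FLAG peak of any culture was present at 513 (28.0%, against 36.3% of all regions). Merged FLAG regions overlapped 1044 of the 1833. Of the 1096 FLAG regions over them, 229 (20.9%) were themselves found only in K27M-Tag, against 9.89% of all 116516 FLAG regions and 21.1% of those over shared regions. The share specific to K27M-Tag was thus about the same under both kinds of H3K4me3 region.

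The FLAG peaks over K27M-Tag-only regions were high in the K27M-Tag lists. Their median percentiles by FLAG score were 75.8, 69.9 and 78.1 in the K27M-Tag cultures, against 53.6, 58.9 and 61.0 in the WT-Tag cultures. FLAG peaks over shared regions in K27M-Tag were at 62.6, 58.2 and 61.1. Median FLAG folds over K27M-Tag-only regions were 5.64, 5.19 and 5.65 against 4.27, 4.26 and 4.30, and median FLAG widths were 729, 609 and 735 bp against 320, 374 and 382.5 bp. Where a peak was called, FLAG was thus wider over these regions in every K27M-Tag culture than in any WT-Tag culture. The same order held over shared regions (485, 456.5 and 480 bp against 296, 362 and 347 bp). It also held away from H3K4me3 (337, 335 and 330 bp against 250, 290 and 286 bp). The folds are taken over a local background whose median was 1.00 times coverage in each K27M-Tag culture and 1.21, 1.27 and 1.30 times in the WT-Tag cultures, so they are no measure of height between genotypes. The summits of FLAG and H3K4me3 lay a median of 152, 154 and 156 bp apart in K27M-Tag, against 542.5, 575 and 524 bp at the wider shared regions.

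Breadth of FLAG was tested with limma at the 11907 FLAG regions present in all 6 FLAG lists, on log2 covered bases with Benjamini-Hochberg adjustment over all of them. Of these, 5245 (44.0%) were called at an adjusted p under 0.05, 5178 (43.5%) wider and 67 (0.563%) narrower in K27M-Tag. Among the 269 that overlapped a K27M-Tag-only region, 188 were called (69.9%), each of them wider. The 269 lay over 274 of the 1833 regions. The median log2 difference of the 269 was 1.19, beside 0.81 over all FLAG regions tested and 1.02 over those at shared regions, of which 57.5% were called wider. Since FLAG was wider over most regions, each list was also centred on its own median breadth. The count at K27M-Tag-only regions then fell to 61, 49 wider and 12 narrower. That is 22.7% called, beside 19.4% over all FLAG regions, and 18.2% wider, beside 8.01% over all and 13.1% at shared regions. The medians were 0.28 at K27M-Tag-only regions, −0.10 over all and 0.11 at shared regions. Without K27M-Tag FLAG replicate 3 the count was 105 (40.7%, beside 19.9% over all), and without replicate 1 it was 115 (43.6%, beside 21.4% over all).

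The largest changes in breadth were at chr15:27707230-27711097, where FLAG covered 3315, 3242 and 3540 bp in the K27M-Tag cultures against 182, 205 and 556 bp in the WT-Tag cultures. The log2 difference was 3.61 (SE 0.42, limma adjusted p = 0.001196). The K27M-Tag-only region under it, chr15:27707982-27708683, was 702 bp wide and lay 187 bp from another H3K4me3 region. At chr8:26746378-26749099 FLAG covered 2163, 1838 and 2477 bp against 207, 273 and 220 bp (log2 difference 3.21, SE 0.30, limma adjusted p = 0.0009125). At chr9:96877689-96881392 the lengths were 3102, 2793 and 3704 bp against 235, 715 and 306 bp (log2 difference 3.10, SE 0.40, limma adjusted p = 0.001417). Every K27M-Tag culture exceeded every WT-Tag culture severalfold in called FLAG length at each of them. Several WT-Tag lengths were close to the shortest peak of their lists (176, 197 and 193 bp in WT-Tag replicates 1 to 3). The sizes of these log2 differences thus rest partly on that floor. The H3K4me3 regions below were chr8:26748483-26749041 (559 bp) and chr9:96878138-96879480 (1343 bp), both shoulders, and after centring the log2 differences were 2.70, 2.30 and 2.18 in the same order.

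A peak is called against a local background, and that background differed between the genotypes. It was recovered at each summit from the deposited fold and p. FLAG peaks over K27M-Tag-only regions had a local background above 1.5 times the list's background coverage in 8.71%, 4.49% and 5.06% of cases for K27M-Tag replicates 1 to 3, against 24.7%, 25.6% and 34.7% for the WT-Tag replicates. In WT-Tag this was more often than over shared regions (19.3%, 16.5% and 25.7%) or away from H3K4me3 (14.2%, 11.2% and 18.0%). In K27M-Tag it was less often than over shared regions (10.2%, 6.08% and 7.80%). The WT-Tag cultures thus had a raised background at more of their FLAG peaks on these regions than elsewhere, and the K27M-Tag cultures at fewer. The regions were chosen by H3K4me3 calls, whose background was nearly that of the FLAG lists of the same genotype (below). This order is therefore not independent of the choice. The part of this background in the FLAG shares was not tested.

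**Figure D5:**
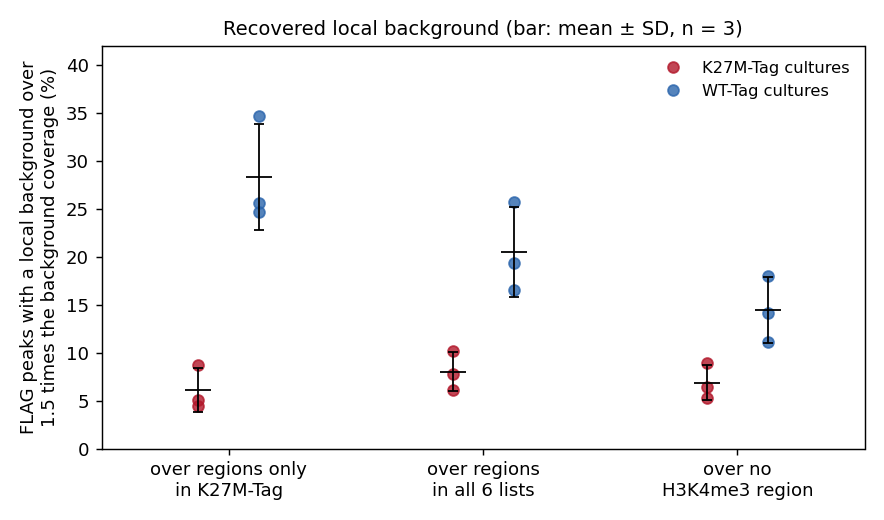
Percent of FLAG peaks whose recovered local background exceeded 1.5 times the background coverage of their list, per K27M-Tag (red) and WT-Tag (blue) culture with mean ± SD of 3 cultures, for FLAG peaks over K27M-Tag-only regions, over shared regions and over no H3K4me3 region. The WT-Tag values run from 24.7% to 34.7% over K27M-Tag-only regions and from 11.2% to 18.0% away from H3K4me3.

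The H3K4me3 peaks of the K27M-Tag-only regions had such a background in 4.92%, 5.68% and 6.31% of cases, and the nearest WT-Tag H3K4me3 peaks within 5 kb in 31.1%, 33.3% and 32.6%. At shared regions it was found in 9.99%, 12.2% and 12.7% of K27M-Tag H3K4me3 peaks and in 36.3%, 37.3% and 36.8% of WT-Tag ones. In both genotypes the values at or near K27M-Tag-only regions were thus below those at shared regions. Where summits of 2 lists lay within 10 bp and one background was above 1.5, the backgrounds of lists of the same genotype correlated across peaks with r from 0.964 to 0.998, and those of different genotypes with r from 0.199 to 0.279. Lists of a genotype thus had nearly the same background, FLAG and H3K4me3 alike, and the genotype and its control cannot be told apart in these lists. Whether the WT-Tag cultures had H3K4me3 just under the limit of their lists was not tested, since the lists hold called peaks only.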

How the data were processed

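Peak lists of 12 ChIP-seq libraries, 1 per library as deposited, were read in build mm9 coordinates, given 1-based. BWA 0.7.17-r1188, MACS2 2.2.7.1 and bedtools 2.29.2 are named, without roles, per the submitters' processing notes. The control and the limit of each list are not given in the sources used here. Deposited columns are a score (10 times −log10 q), a fold ratio at the summit, −log10 p-value and −log10 q-value, as the authors' caller gave them. Drosophila chromatin was added for H3K4me3, per the labels' protocols, and no factor from it enters any value. The 2 input samples were not analysed here. No read totals were used. Background coverage was recovered from fold and p under a Poisson model (relative tolerance 0.0001, 1 match at 100% of peaks). In H3K4me3 lists it was 2.77 to 3.50 (K27M-Tag) and 2.89 to 3.24 (WT-Tag) fragments per base, and in FLAG lists 3.09 to 3.60. The H3K4me3 lists held 34309 to 37627 autosomal peaks (K27M-Tag) and 30884 to 31483 (WT-Tag). The FLAG lists held 57061 to 87258 (K27M-Tag) and 32466 to 46880 (WT-Tag).

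Peaks were merged, overlapped (at least 1 bp) and ranked with Python 3.11.15, numpy 2.4.6, scipy 1.17.1 and pandas 2.3.3. Breadth was fitted with limma 3.58.1 (R 4.3.3) on log2 covered bases, with trend and no pseudocount. Code was tested on simulated lists. Named regions were the 10 of highest lowest-of-3 percentile, the 5 such isolated ones, the 5 widest, the largest chain, 2 on each side of the rule's threshold, and FLAG regions over members with the 3 largest called breadth changes. Members, lists and tests were chosen with earlier results of these data known. No mm9 genome or annotation was used, so genes and sequences are not given.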

Additional observations from a re-analysis of the deposited data

Results flagged for a closer look

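Outside chromosomes 1 to 19, which the comparisons did not use, 28 of 1155 H3K4me3 regions had a peak in all 3 K27M-Tag lists and in no WT-Tag list, and 0 had the reverse pattern. That is a smaller share than the 4.41% of chromosomes 1 to 19. Of the 28, 26 lay on chromosome X, whose total of H3K4me3 regions was not counted. One of the 3 WT-Tag cultures was male and all K27M-Tag cultures were female, so on chromosome X genotype and sex are partly mixed. Each of the 26 regions also had no peak in the female WT-Tag cultures, as the rule requires. The part of genotype and sex in this count was not tested.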

How the results depend on the processing

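The number of K27M-Tag-only regions, 1833, became 1215 with the 50% of H3K4me3 peaks of highest score and 982 with equal H3K4me3 list sizes (30884 peaks each). Most of the 1215 were not among the 1833, so the values given with the 50% of peaks describe a different set of regions. Leaving out each H3K4me3 library in turn gave 2206 to 2991, the highest without K27M-Tag replicate 2, as fewer lists must then meet the rule. The isolated share became 79.3% (50% of peaks), 67.3% (equal sizes), 80.0% (peaks joined across 1000 bp), 74.1% (limit of 1000 bp), 48.2% (limit of 10000 bp) and 79.5% (gap to the nearest shared region), and 53.6% to 60.5% with a library left out. Median width became 1010, 532 and 538 bp with the 50% of peaks, equal sizes and joined peaks, and 400 to 523.5 bp with a library left out. The median percentile became 54.7 and 29.3 with the 50% of peaks and equal sizes, and 19.8 to 24.6 with a library left out. Cuts that remove the lowest peaks raise this percentile, and with the 50% of peaks it cannot fall much under 50. The genotype differences in FLAG share and in covered bases kept their direction in 27 of 27 alternatives (19.5 to 37.9 points). The lowest value was that of the share with equal FLAG list sizes. The contrast against shared regions, −4.45 points, turned to 0.261 with equal FLAG list sizes, and to 17.02, 14.5 and 15.54 points under 400 bp, from 400 to under 600 bp and from 600 to under 1000 bp. It was −5.29 to −3.86 with a FLAG library left out, and the cause was not tested. FLAG breadth calls fell from 188 to 61 with centred lists (over all FLAG regions from 44.0% to 19.4%), and were 105 to 229 with a FLAG library left out (19.9% to 46.1% over all). Replicate numbers did not pair the cultures (r of same-numbered deviations 0.0036 to 0.013). With a replicate block the differences were the same 29.4, −4.45 and 30.2 points (exact sign-flip p = 0.25, the smallest that 3 pairs allow), and 176 FLAG regions were called.

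Depth limits what these values show: a region counts as absent from WT-Tag when no peak passed a −log10 q near 2, not when signal is lacking. Covered lengths, shares and counts move with depth and control, and no replicate interval covers a control shared by the lists of a genotype.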
